A study of Sus scrofa with 5 samples.

Results

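The miR-146 and miR-155 miRNAs were followed across small RNA libraries of pig embryos and cultured cells. The members are every mature name in the table of reported miRNAs that reads ssc-miR-146a, ssc-miR-146b or ssc-miR-155, with or without an arm ending. The rule gave 5 of 411 mature names, ssc-miR-146a-5p, ssc-miR-146a-3p, ssc-miR-146b, ssc-miR-155-5p and ssc-miR-155-3p, and 4 of them were among the 327 names with a read in at least 1 library. Each member had 1 precursor row, so no reads of a member were added over several precursors. The arm of ssc-miR-146b is not part of its name.

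BL_1 and BL_2 were 2 pools of day 7 blastocysts made by parthenogenetic activation of oocytes, that is, without sperm, by an electric pulse and 6-DMAP, and cultured in PZM3 with fetal bovine serum added later. The ES-like cells were an embryonic stem cell-like line kept on mitomycin-C-treated mouse embryonic fibroblasts with stem cell factor and basic fibroblast growth factor. The porcine embryoid bodies (PEBs) were hanging-drop aggregates of these cells without cytokines, and the pig fetal fibroblasts (PFFs) were grown from fetal body tissue in DMEM with fetal bovine serum. Apart from the 2 BL pools there was a single library per cell type, so a difference that rests on ES-like cells, PEBs or PFFs has no replicate on that side. The study's sample sheet lists the mature read totals of ES-like cells and PFFs exchanged relative to the deposited columns that the sample titles give to them. The titles were followed here, and an exchange of these 2 libraries would exchange every value given for them.

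miR-146a and miR-146b are products of separate genes that share their seed and differ toward the 3′ end. They are known as brakes on Toll-like receptor and interleukin-1 signalling, where they repress the adaptor TRAF6 and the kinase IRAK1, and NF-κB raises the transcription of miR-146a. miR-155 comes from another gene, is induced in activated macrophages and lymphocytes, and represses SOCS1 and the phosphatase SHIP1, so that it is often set against miR-146 as an amplifier of the same signals. In the RefSeq table of assembly Sscrofa11.1, which is not the build of the files and was used for gene order only, MIR146A, MIR146B and MIR155 overlapped no other annotated gene. The nearest protein-coding genes were ATP10B and PTTG1 for MIR146A and NCAM2 and MRPL39 for MIR155. MIR146B was next to CUEDC2 and LOC102167427, and NFKB2, which encodes an NF-κB subunit, was the fourth protein-coding gene away on the side of CUEDC2.

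The shallowest library was BL_1 with 113743 mature miRNA reads and the deepest that of PFFs with 27071931. Levels are reads per 1000000 mature miRNA reads (RPM). A miRNA with no read could still be present at up to 26.4 RPM in BL_1 and 0.111 RPM in PFFs, the value of 3 reads. Intervals are exact 95% intervals of the read counts and cover counting error only, because reads from PCR-amplified libraries are not independent molecules. The labels of the libraries were compared with marker miRNAs. The 8 fibroblast and mesenchymal names (miR-143, miR-145, miR-199a, miR-199b and miR-214) summed to 183565 RPM in PFFs, 132139 in PEBs, 58252 in ES-like cells, 218 in BL_2 and 273 in BL_1. Among them, miR-199a-3p (80420 against 52517 RPM), miR-199a-5p and miR-214 were higher in PEBs than in PFFs, and the other names were higher in PFFs. Of 9 pluripotency-associated miRNAs listed, only 4 had a name among the 411 mature names, and these 4 had reads. The others, miR-302a to miR-302d and miR-367, were not counted, so their levels are not known here. The 4 with reads did not share a pattern. miR-371-5p was at 324635 RPM in BL_1 and 296148 in BL_2 but at 0.185 in PFFs, 0.505 in PEBs and 30.9 in ES-like cells. In ES-like cells, miR-363 was at 41258 RPM, with 10404 in PEBs, 422 in BL_1, 331 in BL_2 and 280.0 in PFFs, and miR-106a and miR-20b were likewise highest in ES-like cells. Against each other, the libraries titled ES-like and PFF thus had their marker miRNAs in the direction of their titles, with more miR-363 in the former and more miR-143-3p in the latter (101507 against 13226 RPM). ES-like cells also carried many reads of mesenchymal miRNAs, and the part of mouse feeder cells in them was not tested.

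miR-146b was the most abundant member in every library except PFFs. PEBs held 37869 reads of it, ES-like cells 3819, BL_2 2193, PFFs 162 and BL_1 70. The levels from high to low were 2389 RPM in PEBs (2365 to 2413), 788 in BL_2 (756 to 822), 615 in BL_1 (480 to 778), 599 in ES-like cells (580 to 619) and 5.98 in PFFs (5.10 to 6.98). In RPM, PEBs stood alone at the top, the BL libraries and ES-like cells lay close together, and PFFs stood far below all of them. ES-like cells and BL_1 could not be separated by counting error, with a ratio of 0.974 (0.769 to 1.25). Against BL_2, the ratio of ES-like cells was 0.760 (0.721 to 0.802), an interval that excludes 1. PEBs were 3.40 times as high as the BL mean of 702 ± 122 RPM (SD, n = 2), 3.99 times as high as ES-like cells (3.86 to 4.12) and 399 times as high as PFFs (342 to 469). ES-like cells were 100.1 times as high as PFFs (85.6 to 118). In these bulk libraries, more cells that hold a miRNA and more of it in each cell cannot be told apart. With TMM, PEBs were 2.09 times as high as BLs and the log2 ratio of PFFs to PEBs was -7.74 in place of -8.64. The log2 ratio of PFFs to ES-like cells was -6.65 in RPM, -5.55 with TMM and -5.61 with the size factors of DESeq2. The difference between BL_1 and BL_2 was 0.36 on the log2 scale, close to the median of 0.46 over 120 miRNAs with at least 10 reads in both, and the differences of PEBs from BLs and of PFFs from every other cell type were larger in RPM, at 1.77 or more in size. With TMM, the levels were 404 in ES-like cells, 527 in BL_1, 1232 in BL_2 and 1841 in PEBs. The BL libraries thus lay farther apart on the log2 scale than PEBs from the BL mean. In rank by reads, miR-146b was number 53 of the 306 names with a read in PEBs and number 213 of 315 in PFFs. Its highest and lowest libraries differed by 8.64 on the log2 scale, and 10 of 116 names with at least 10 reads in every library, itself included, spanned as much or more, against a median of 3.04.

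miR-146a-5p showed a similar order at lower levels. PEBs held 3216 reads of it, BL_2 556, ES-like cells 313, PFFs 143 and BL_1 18. The levels from high to low were 203 RPM in PEBs (196 to 210.0), 199.8 in BL_2 (184 to 217), 158 in BL_1 (93.8 to 250.1), 49.1 in ES-like cells (43.8 to 54.9) and 5.28 in PFFs (4.45 to 6.22). PEBs and both BL libraries overlapped, ES-like cells were lower, and PFFs were the lowest. The ratio of PEBs to BL_2 was 1.02 (0.928 to 1.11), and that of PEBs to the BL mean of 179 ± 29.4 RPM (SD, n = 2) was 1.13. This last ratio turned below 1 with TMM (0.698) and with the size factors of DESeq2 (0.752). PEBs were 4.13 times as high as ES-like cells (3.68 to 4.65) and 38.4 times as high as PFFs (32.5 to 45.7). With TMM, the log2 ratio of PFFs to PEBs was -4.36 in place of -5.26, and that of PFFs to ES-like cells was -2.12 in place of -3.22. The passenger arm, miR-146a-3p, had no read in any library. In PEBs, with 3216 reads of miR-146a-5p, the limit of 3 reads allows the 3p arm up to 0.0933% of the reads of the 5p arm.

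miR-155-5p had its highest level where the miR-146 pair had its lowest. PFFs held 7549 reads of it, PEBs 2473, ES-like cells 691, BL_2 100 and BL_1 2. The levels from high to low were 279 RPM in PFFs (273 to 285), 156 in PEBs (149.9 to 162), 108 in ES-like cells (100.5 to 117), 35.9 in BL_2 (29.2 to 43.7) and 17.6 in BL_1 (2.13 to 63.5). PFFs were highest and BLs lowest, and the intervals of the 3 cultured cell types did not overlap. PFFs were 1.79 times as high as PEBs (1.71 to 1.87) and 2.57 times as high as ES-like cells (2.38 to 2.78). Against PEBs, PFFs were 3.34 times as high with TMM and 3.59 times as high with the size factors of DESeq2. The log2 ratio of PFFs to ES-like cells was 1.36 in RPM, 2.46 with TMM and 2.40 with the size factors of DESeq2. BL_2 was 2.04 times BL_1, with an interval of 0.551 to 17.1, because BL_1 held only 2 reads. Against BL_2 alone, PFFs were 7.76 times as high (6.37 to 9.55). miR-155-3p was rare, with no read in either BL library, 20 in PFFs, 16 in PEBs and 4 in ES-like cells. Its share of the reads of both arms was 0.264% in PFFs (0.161 to 0.408), 0.643% in PEBs (0.368 to 1.04) and 0.576% in ES-like cells (0.157 to 1.47), with exact Clopper-Pearson intervals. The intervals of ES-like cells and PFFs overlapped, and those of PEBs and PFFs overlapped slightly. By the limit of 3 reads, 0 of 100 reads in BL_2 allows a 3p share of up to 3%, and the upper Clopper-Pearson bound was 3.62%.

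**Figure D1:**
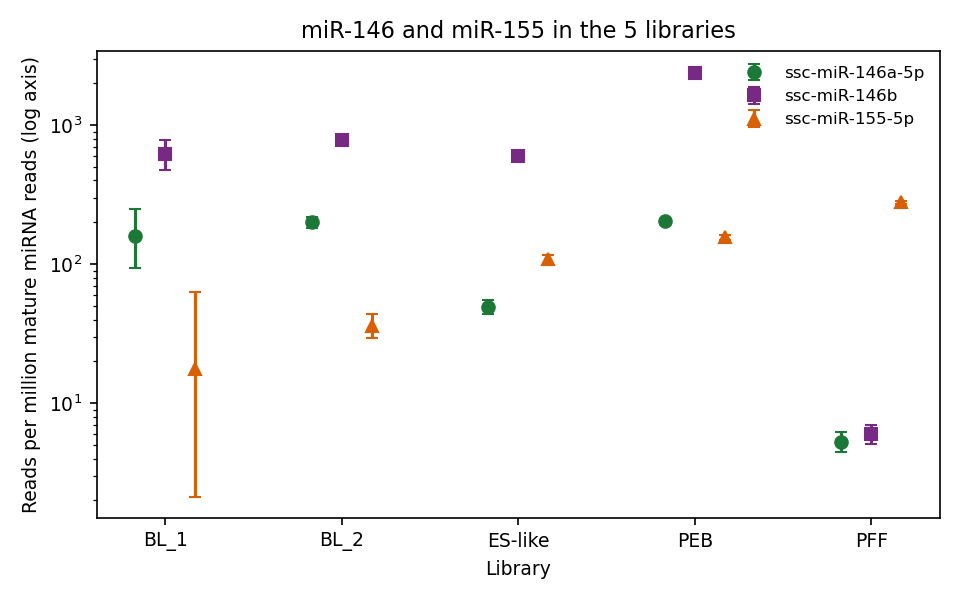
Levels of miR-146a-5p, miR-146b and miR-155-5p in RPM (log axis) in each of the 5 libraries, with bars for exact 95% intervals of the read counts. The miR-146 pair sits at 5.28 and 5.98 RPM in PFFs, where miR-155-5p has its highest level of 279 RPM.

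The contrast of miR-146a with miR-146b was made within each library, so that it needs no scaling between libraries. miR-146a-5p made up 20.5% of the reads of the pair in BL_1 (18 of 88 reads, 12.6 to 30.4%) and 20.2% in BL_2 (556 of 2749, 18.7 to 21.8%). In PEBs it made up 7.83% (3216 of 41085, 7.57 to 8.09%), nearly as in ES-like cells with 7.58% (313 of 4132, 6.79 to 8.42%), whereas in PFFs it made up 46.9% (143 of 305, 41.2 to 52.7%). The shares fell into separate levels, with the BL libraries together, ES-like cells and the PEBs made from them together, and PFFs apart. The BL replicates did not differ beyond counting error (odds ratio 1.01, two-sided Fisher's exact test on the reads of these 2 libraries, p = 1). Expressed as a ratio, there were 3.94 miR-146b reads for each miR-146a-5p read in BL_2, 1.13 in PFFs (0.899 to 1.43), 11.8 in PEBs (11.4 to 12.2) and 12.2 in ES-like cells (10.9 to 13.7). The interval in PFFs includes 1. On the log2 scale of the ratio, ES-like cells and PEBs differed by 0.05 and the BL libraries by 0.02, while BLs lay 1.64 above ES-like cells and PFFs 3.43 above them.

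**Figure D2:**
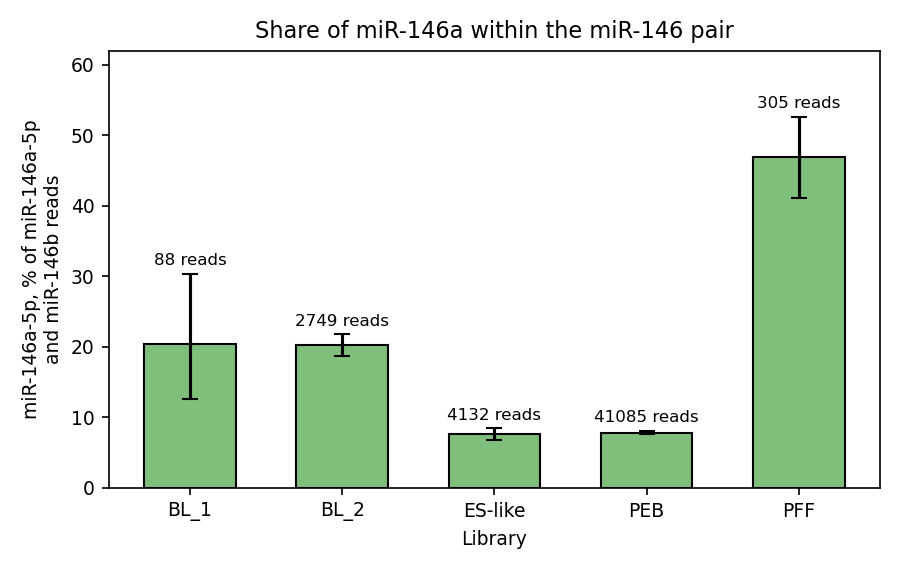
Share of miR-146a-5p in the reads of miR-146a-5p and miR-146b, in percent, in each library, with exact Clopper-Pearson 95% intervals and the number of reads above each bar. BL_1 and BL_2 stand at 20.5 and 20.2%, ES-like cells and PEBs at 7.58 and 7.83%, and PFFs at 46.9%.

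The levels of the pair changed together between ES-like cells and PEBs, by 4.13 times for miR-146a-5p and 3.99 times for miR-146b, with overlapping intervals. Between PEBs and PFFs they parted, with a ratio of 38.4 for miR-146a-5p and 399 for miR-146b. The sum of the pair, which share a seed, was 2592 RPM in PEBs, 988 in BL_2, 774 in BL_1, 648 in ES-like cells and 11.3 in PFFs. The reads of miR-146a-5p were fewest relative to those of miR-146b in ES-like cells, at 8.20%. Whether reads of miR-146b were counted as miR-146a-5p was not tested.

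Grouped by the study's own division, the log2 ratio of miR-146a-5p to miR-146b was -2.52 ± 0.95 in pluripotent libraries (SD, n = 3) and -1.87 ± 2.39 in differentiated libraries (SD, n = 2). The difference was -0.65 (exact permutation test, two-sided, p = 0.6), and the smallest p this design allows is 0.2. Without PFFs, the difference turned to 1.04. The grouping cut across the levels described above, since ES-like cells and PEBs fell on opposite sides with nearly equal ratios.

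The ratio of the pair was set beside those of other pairs of miRNAs with the same number and a different letter, a comparison chosen after the values had been seen. There were 20 such pairs, from 10 numbers, with at least 10 reads of both members in every library, and many of them were pairs within miR-30, most of which share members. The log2 ratio of miR-146a-5p to miR-146b ranged over 3.43 across the libraries, the seventh largest range, against a median range of 2.52 over the 20 pairs. Its difference between BL_1 and BL_2, 0.02, and that between ES-like cells and PEBs, 0.05, were each the smallest of the 20, with medians of 0.38 and 0.69. The next smallest were 0.03 for miR-125a and miR-125b and 0.075 for miR-23a and miR-23b. These ranks are finer than counting error. In BL_1, with 18 and 70 reads, the interval of miR-146b reads per miR-146a-5p read was 2.29 to 6.94. Those of ES-like cells and PEBs overlapped. These are descriptions of 5 libraries and were not tested.

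**Figure D3:**
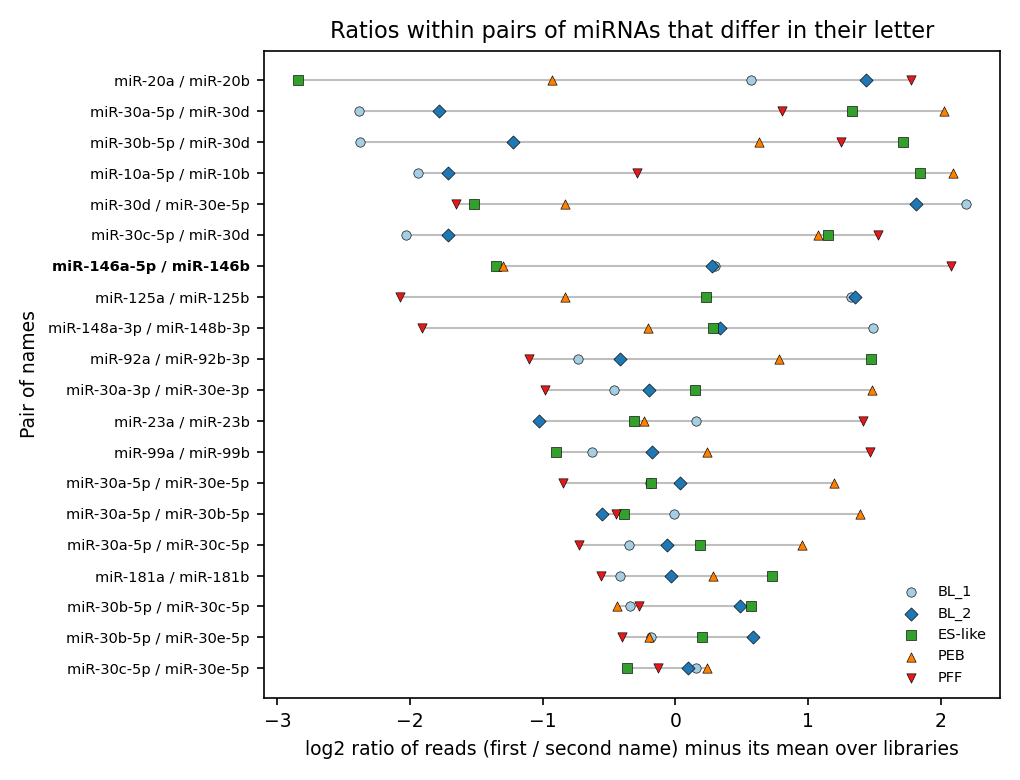
Log2 ratio of reads within 20 pairs of miRNAs that differ in their letter, each centred on its mean over the 5 libraries (x axis), 1 row per pair and 1 symbol per library. In the row of miR-146, the BL symbols nearly coincide, as do those of ES-like cells and PEBs, while the whole row spans 3.43.

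miR-155-5p was compared with the miR-146 pair within each library in the same way. There were 27.5 reads of the pair for each read of miR-155-5p in BL_2, 16.6 in PEBs, 5.98 in ES-like cells and 0.0404 in PFFs. In BL_1, with 2 reads of miR-155-5p against 88 of the pair, the share of miR-155-5p in the reads of the 3 miRNAs was 2.22% (0.270 to 7.80%), and in BL_2 it was 3.51% (2.86 to 4.25%). It was 5.68% in PEBs (5.46 to 5.90%), 14.3% in ES-like cells (13.3 to 15.3%) and 96.1% in PFFs (95.7 to 96.5%). PFFs were the only one of the 5 libraries in which miR-155-5p exceeded the pair.

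The 2-fold rule of the study lists a miRNA for a cell type when it is at least 2 times as high as in each other cell type, with BLs as the mean of both libraries. Applied to RPM, it listed 1 of the 4 detected members, miR-146b for PEBs, where it was 3.40 times as high as in BLs, the nearest other cell type. The same rule listed 7.34% of the 327 names for PEBs. No member was listed for BLs, ES-like cells or PFFs, or for pluripotent or differentiated cells as a whole, against 18.7%, 12.5%, 7.95%, 6.73% and 3.98% of the 327 names. In PFFs, miR-155-5p stood at 1.79 times the level of PEBs in RPM and passed with TMM and with the size factors of DESeq2, which made 2 listed members. The list of PFFs itself held 48 of the 327 names with TMM and 51 with the size factors of DESeq2, against 26 in RPM.

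Cell types were also compared in pairs for miR-146a-5p, miR-146b and miR-155-5p, and the share of all names that differed at least 2-fold in the same direction is given beside each count. Both miR-146 names were at least 2-fold higher in PEBs than in ES-like cells (21.0% of names), and none of the 3 members the other way (26.8%). Both were at least 2-fold higher than PFFs in PEBs (43.3%), in ES-like cells (51.4%) and in BLs (36.5%). In BLs, only miR-146a-5p of the 3 was at least 2-fold above ES-like cells in RPM, by 3.65 times (25.4%), or a log2 ratio of ES-like cells to BLs of -1.87 in RPM, -2.76 with TMM and -2.49 with the size factors of DESeq2, while the log2 ratio of ES-like cells to BLs for miR-146b was -0.23 in RPM and -1.12 with TMM, past 2-fold, and no member was at least 2-fold above PEBs (27.6%). PEBs were at least 2-fold above BLs in miR-146b and miR-155-5p (52.7%). miR-155-5p was at least 2-fold higher than BLs in ES-like cells (53.6%) and in PFFs (41.2%), and PFFs were at least 2-fold above ES-like cells in it (19.2%), whereas in RPM no member was at least 2-fold higher in PFFs than in PEBs (19.2%), a threshold that miR-155-5p passed with TMM and with the size factors of DESeq2.

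The 3 pluripotent libraries (BL_1, BL_2 and ES-like cells) were compared with the 2 differentiated ones (PEBs and PFFs) by edgeR's quasi-likelihood test over 279 miRNAs. 0 miRNAs (0%) had an adjusted p under 0.05, against 21 with an unadjusted p under 0.05 (7.53%). DESeq2, which gave no adjusted p for 27 of the 279, called 14 (5.02%). Without ES-like cells, edgeR called 16 of 227 (7.05%). No member was among any of these. The log2 fold change of pluripotent over differentiated libraries was 0.97 (SE 1.58) for miR-146a-5p, with an edgeR adjusted p of 0.938, and -0.36 (SE 1.69) for miR-146b, with an edgeR adjusted p of 0.976. For both, all 3 pluripotent libraries lay between PFFs and PEBs in RPM, so the groups overlapped. Without PEBs, which leaves PFFs as the only differentiated library, the value of miR-146b turned to 6.03 and that of miR-146a-5p was 4.01. The value of miR-146a-5p was 0.06 without PFFs and 0.12 without BL_2. The log2 fold change of miR-155-5p was -2.40 (SE 1.24, edgeR adjusted p = 0.478, unadjusted p = 0.0870), and its RPM was lower in 3 of 3 pluripotent libraries than in both differentiated ones. Its value was -1.22 without PFFs, -3.35 without PEBs and -3.33 without ES-like cells. Its edgeR adjusted p was 0.101 without ES-like cells and 0.900 without BL_2. miR-155-3p did not have enough reads for this test.

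The miRNAs with the most similar pattern were sought by the root mean square difference of log2(RPM + 10), centred on its mean over the 5 libraries, among 272 other names with at least 10 reads in at least 3 libraries. The 3 nearest names to miR-146a-5p were ssc-miR-9, ssc-miR-9-1 and ssc-miR-9-2, which differed in no library by more than 1 read and were therefore read as 1 miRNA. miR-9 is known from neural development and also represses NFKB1. The difference was 0.30 (Pearson's r = 0.994 over 5 libraries). PEBs held 53454 reads of miR-9, BL_2 6759, ES-like cells 4653, PFFs 3150 and BL_1 219. For each miR-146a-5p read there were 12.2 miR-9 reads in both BL libraries, 22.0 in PFFs, 16.6 in PEBs and 14.9 in ES-like cells. It was also the nearest to miR-146b, at a larger difference of 0.97 (r = 0.953). With names of equal counts taken once, miR-424-3p and miR-30d followed for miR-146a-5p, at 0.74 and 0.75, and miR-96-5p and miR-146a-5p for miR-146b, at 1.10 and 1.24. By this measure, which also counts differences in the size of the changes, miR-146b was number 32 of 266 in likeness to miR-146a-5p, although its r of 0.919 was above those of miR-424-3p (0.865) and miR-30d (0.877).

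The nearest names to miR-155-5p were ssc-miR-21, ssc-miR-370 and ssc-miR-2320-5p, with differences of 0.22 (r = 0.985), 0.28 (r = 0.978) and 0.29 (r = 0.975). miR-21, the most abundant miRNA of PFFs and a known repressor of PDCD4, was at 522808 RPM in PFFs, 188743 in PEBs, 154848 in ES-like cells, 69981 in BL_2 and 38578 in BL_1. It thus followed the same order as miR-155-5p, at 1210 to 2194 times its reads. Since miR-21 took 522808 of each 1000000 reads in PFFs, the other miRNAs share the rest of the scale there. All of these likenesses rest on 5 libraries and are descriptions. The names changed with the constant added. With 100 RPM, none of the 3 names remained for miR-146a-5p and 1 of 3 for miR-155-5p, and with 1 RPM none remained for miR-146b.

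**Figure D4:**
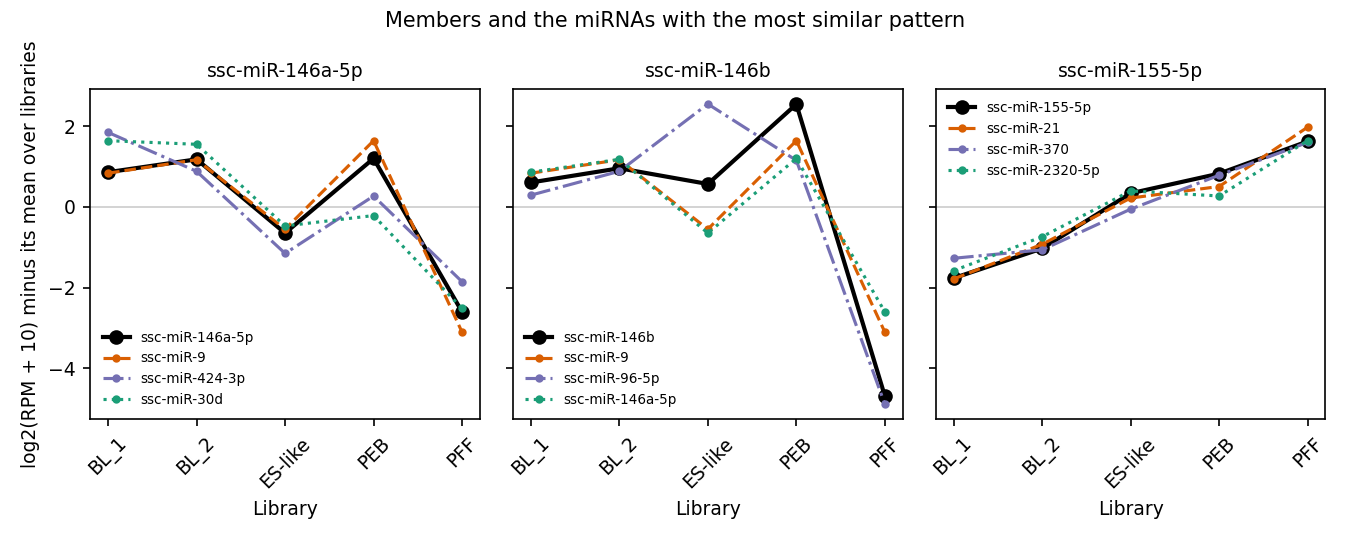
Log2(RPM + 10) minus its mean over the 5 libraries (y axis) for each member (black) and the 3 miRNAs with the most similar pattern, names of equal counts taken once, by library (x axis, lines only join the points of a miRNA). miR-9 follows miR-146a-5p with a difference of 0.30, and miR-21 follows miR-155-5p with a difference of 0.22.

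Other miRNAs linked to inflammatory signalling were taken from a list of 10 miRNA numbers. Of these, 8 were measured as 9 names, and miR-147 and miR-223 were not analysed here. Their median log2 ratio of PEBs to ES-like cells was 1.03, against -0.23 over 301 names, and 5 of the 9 were at least 2-fold higher in PEBs (21.0% of all names) and 0 at least 2-fold lower (26.8%). Between PFFs and PEBs they split, with miR-21, both arms of miR-221 and miR-222, 4 names, at least 2-fold higher in PFFs (19.2% of all names) and miR-9, miR-132, miR-187 and miR-212, also 4, at least 2-fold higher in PEBs (43.3%). miR-132 and miR-212, a pair from 1 locus that CREB induces, had 32.6 and 44.2 RPM in PEBs against 13.7 and 8.64 in PFFs. miR-187 had 8.90 RPM in PEBs and 0.111 in PFFs. 0 of the 9 had an edgeR adjusted p under 0.05 between pluripotent and differentiated libraries, as did 0% of the 279 names tested.

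Because miR-146 and miR-155 are abundant in blood cells, the blood cell list was examined beside them. Its 6 names (both arms of miR-142, miR-144, miR-150, miR-451 and miR-486) summed to 123 RPM in BL_1, 98.5 in BL_2, 94.8 in PEBs, 62.3 in ES-like cells and 3.88 in PFFs. In BL_1, 4 of the 6 had no read, and 12 reads of miR-486 gave 105.5 RPM of its sum, so the sums rest on different names. miR-142, which is restricted to blood cells, was higher in PEBs than in ES-like cells, as the miR-146 pair was. Its 3p arm stood at 27.0 against 6.75 RPM and its 5p arm at 55.8 against 11.0 RPM, ratios of 4.00 and 5.08. In BL_2 the 3p arm had no read and the 5p arm was at 1.80 RPM, and the depth of BL_1, where neither had a read, could not show such levels. The other names did not share this. miR-144 and miR-451, which mark red cells, were at 0.883 and 0.820 RPM in PEBs against 18.2 and 13.8 in ES-like cells, and miR-150, a lymphocyte miRNA, was at 2.90 against 5.96 RPM. Of the 6 names, 2 were at least 2-fold higher in PEBs than in ES-like cells (21.0% of all names) and 3 at least 2-fold lower (26.8%). Against PFFs, 6 of the 6 were at least 2-fold higher in PEBs (43.3% of all names) and 0 at least 2-fold lower (19.2%). For miR-144 and miR-451 this rests on few reads, 14 in PEBs against 3 in PFFs and 13 against 5. The part of blood cells in the levels of miR-146 was not tested.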

How the data were processed

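The authors left out reads without adapter and short reads, trimmed with cutadapt 1.10, aligned with Bowtie 1.1.1 to the pig genome (Sscrofa10.2 in the submitters' processing notes) and assigned reads to miRBase entries with miRDeep2. The deposited table holds raw read counts for 493 pairs of mature miRNA and precursor, with no normalization. Its 1 repeated row was summed as it stands. The table of predicted loci gives no miRNA names and was not used. Columns were matched to samples by the sample titles, which the study's sample sheet contradicts in its mature read totals of ES-like cells and PFFs.

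Counts were summed per mature name and divided by the library total (RPM). Depth was 113743, 2782150, 6372500, 15849954 and 27071931 reads in BL_1, BL_2, ES-like cells, PEBs and PFFs. These totals can hold a read more than once. Of the names with a read, 58 had more than 1 precursor row, and the names of miR-9 held nearly equal counts. With the largest precursor row of each name, PFFs were 1.55 times as high as PEBs in miR-155-5p, against 1.79. The edgeR log2 fold change of miR-146a-5p was then 0.30, against 0.97. Pluripotent and differentiated libraries were compared with edgeR 4.0.16 (quasi-likelihood, TMM, Benjamini-Hochberg, more than 5 reads in at least 3 libraries, threshold 0.05) in R 4.3.3, with DESeq2 1.42.0 as an alternative. The SE given with edgeR values is the size of the log2 fold change divided by the square root of the test's F statistic. Nothing says that the BL pools came from separate animals, so their spread may be technical. Intervals are exact Poisson (levels), Clopper-Pearson (shares) or conditional binomial (ratios of 2 libraries). Named miRNAs are the members, the 3 nearest in pattern to each, and the fixed lists. Members and lists were chosen with earlier results of these data known. Alternatives were other scalings, filters, thresholds, constants, the largest precursor row and leaving out libraries. The other steps ran in Python 3.11.15 with scipy 1.17.1 and pandas 2.3.3.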

Additional observations from a re-analysis of the deposited data

How the results depend on the processing

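The difference in the log2 ratio of miR-146a-5p to miR-146b between pluripotent and differentiated libraries ranged from -2.34 to 1.04 when single libraries were left out, with the change of sign without PFFs. Members listed by the 2-fold rule numbered 2 with TMM, 2 with the size factors of DESeq2 and 0 with a 4-fold threshold, against 1. Of the 327 names, these settings listed 48, 51 and 14 for PFFs, against 26, and 20, 19 and 7 for PEBs, against 24. Calls between pluripotent and differentiated libraries numbered 14 with DESeq2 and from 0 to 16 when single libraries were left out, with 16 without ES-like cells, none of them a member. The log2 fold change of miR-146b ranged from -1.32 without PFFs to 6.03 without PEBs when single libraries were left out. Of 72 log2 ratios of members between cell types under other scalings, constants or single BL libraries, 70 kept their direction. The 18 with 10 RPM added could not do otherwise, since the same constant on both sides cannot reverse a ratio. The 2 that turned were those of miR-146a-5p in PEBs over BLs, at -0.52 with TMM and -0.41 with the size factors of DESeq2. Its fold in PEBs over the nearest other cell type was then 0.698 and 0.752. Relative to RPM and to PFFs, TMM shifts PEBs by -0.90, ES-like cells by -1.10, BL_1 by -0.75 and BL_2 by 0.12 on the log2 scale. The cause of these changes was not tested. No paired analysis was made, since only BLs had more than 1 library. PEBs were made from the ES-like cells, and the tests of pluripotent against differentiated libraries treated these libraries as independent. BL_1 limits what can be said of miR-155-5p in BLs, with 2 reads.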
